A study of Arabidopsis thaliana with 36 samples.

Results

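The comparison described here set root bends of puchi-1 mutant seedlings against root bends of wild-type Columbia-0 (WT) seedlings at 24 hours post-gravistimulation (hpg). The comparison is defined by genotype and time alone, and it holds 3 puchi-1 libraries and 3 WT libraries, which are 6 of the 36 libraries of the series. All genes of the count table were considered, and 25889 of its 37973 rows held enough reads to be tested. Both genotypes were 4-day-old seedlings grown under continuous light, and each library came from the pooled bends of many seedlings. The whole series adds bends at 12, 18, 30 and 36 hpg and unbent mature root segments without primordia, 3 libraries per genotype and stage. The question addressed was which genes depend on PUCHI while a lateral root primordium (LRP) is being built.

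A lateral root arises from pericycle cells inside the parent root. Rotating a seedling makes its root bend, and a primordium then forms at the bend at a predictable time, so that bends taken at the same hour hold primordia of similar age. The young primordium first proliferates, then acquires an outer layer, a stem cell niche and finally a meristem of its own, and it has to push through the overlying tissues. PUCHI is an AP2/ERF transcription factor expressed in early primordia, and primordia of the mutant are known to develop late and with disordered divisions. At a single hour, genotype and developmental stage therefore cannot be told apart. A bend also holds all tissues of the parent root, so that in these bulk samples fewer cells of a type and less RNA per cell cannot be told apart either.

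The 6 libraries held between 43849333 and 89713801 counted reads. Levels are given below as CPM, the counts of a gene divided by the TMM-scaled library total, for libraries 1, 2 and 3 of each genotype in that order. A log2 fold change (log2FC) is puchi-1 over WT, from edgeR's quasi-likelihood test with Benjamini-Hochberg adjustment, and where an error follows it that is the standard error. A gene passed when its adjusted p was under 0.05, and it was called when its log2FC was also beyond 1 or −1. The labels number the libraries as replicates without naming separate plantings, so that p-values measure the spread between libraries of a group. The fit estimated this spread over all 36 libraries of the series, not over the 6 libraries alone. The titles carry dates of months 7 and 8 for the WT libraries and of month 3 for puchi-1 replicate 2, the only dated puchi-1 library. Genotype and date therefore cannot be told apart at 24 hpg. A WT library, replicate 3, stood apart in genes of the parent root. The summed level of 10 root hair genes was 101, 97.7 and 63.9 CPM in puchi-1 libraries against 43.7, 81.3 and 13.5 CPM in WT libraries, and that of 17 jasmonate and wounding genes was 793, 309 and 885 CPM in puchi-1 libraries against 736, 1240 and 1940 CPM in WT libraries. The part of these lists in the results below was not tested, and the count of called genes is given without each library.

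At 24 hpg, 105 genes were called, which is 0.406% of the genes tested. Of these, 26 were higher in puchi-1 (0.1% of the genes tested) and 79 were lower (0.305%). The median log2FC was −3.35 over the genes called lower, 1.67 over those called higher and 0 over all genes. For 33 of the 79 lower genes the log2FC was under −4, and 24 of the 79 averaged under 0.1 CPM in puchi-1 bends. A further 75 genes passed with a log2FC within 1, 36 higher and 39 lower, so that 180 genes passed in all (0.695%), 62 higher (0.239%) and 118 lower (0.456%). The libraries of the genotypes did not overlap for 104 of the 105, where 14.4% of all genes did not overlap with puchi-1 higher and 11.5% with puchi-1 lower. Without WT replicate 3 the count of genes called at 24 hpg was 59, 6 higher and 53 lower, and 57 of these were among the 105. Without puchi-1 replicates 1, 2 and 3 in turn it was 53, 51 and 53, and without WT replicates 1 and 2 it was 118 and 91. Of the 79 lower genes 49 belonged to 1 or more of the 33 gene lists and 27 families examined, and of the 26 higher genes 14 did.

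**Figure D1:**
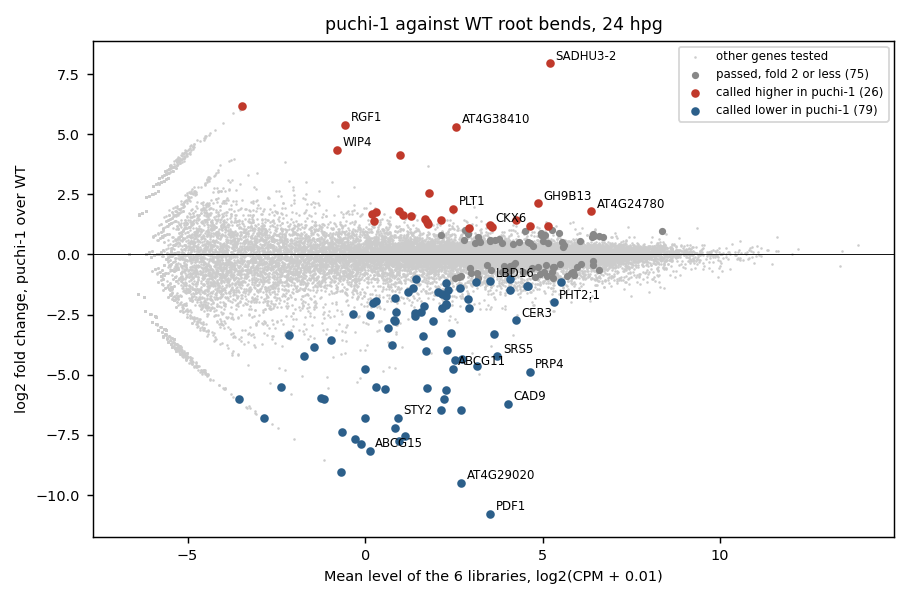
Each point is a gene tested at 24 hpg, with its mean level over the 6 libraries on the x axis (log2 of CPM + 0.01) and its log2 fold change, puchi-1 over WT, on the y axis. Red points are the 26 genes called higher in puchi-1, blue points the 79 called lower and dark grey points the 75 that passed with smaller changes; the blue points reach −10.79 (PDF1), while SADHU3-2 stands alone at 7.95.

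PUCHI itself (AT5G18560, chromosome 5) was measured at 28.7, 30.2 and 31.0 CPM in puchi-1 bends against 16.5, 15.1 and 13.9 CPM in WT bends. The transcript of the mutated gene was thus higher in every puchi-1 library, by a log2FC of 0.99 ± 0.19 (adjusted p = 0.00799). Counts per gene do not show the sequence of the allele, so that this level does not check the genotype labels. Without WT replicate 3 the adjusted p was 0.0738. LEP (AT5G13910), an ERF factor of the same family, also rose, with 14.7, 19.2 and 15.9 CPM in puchi-1 bends against 8.0, 7.0 and 7.19 CPM in WT bends (log2FC 1.16 ± 0.28, adjusted p = 0.0463). The call of LEP was at the edge of the threshold and was lost without each of the 6 libraries in turn (adjusted p between 0.0835 and 0.277).

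The epidermis of a new organ starts as a protoderm, a surface layer marked by homeodomain factors of class IV and by the wall protein PDF1. Of 16 tested genes of the protoderm list, 3 fell in puchi-1 and none rose, where 0.456% of all genes fell and 0.239% rose. The median log2FC of the list was −0.12. PDF1 (AT2G42840, chromosome 2), which encodes an extracellular proline-rich protein of outer cell layers, was measured at 0.0239, 0 and 0 CPM in puchi-1 bends against 30.5, 16.5 and 21.8 CPM in WT bends. These levels rest on 2 reads in puchi-1 against 4274 in WT, a ratio of WT over puchi-1 of 2110 with an exact 95% interval of 584 to 17400 that covers counting error only. The log2FC of PDF1 was −10.79 ± 1.58 (adjusted p = 0.00039). PDF2 (AT4G04890), a class IV homeodomain factor that acts in the outermost layer, gave 0.0359, 0 and 0 CPM in puchi-1 bends against 2.34, 1.75 and 1.81 CPM in WT bends (log2FC −6.78 ± 1.34, adjusted p = 0.011). Its closest relative ATML1 was barely detected, at 0.0359, 0 and 0 CPM against 0.165, 0.195 and 0.157 CPM in WT, and did not pass (adjusted p = 0.3). HDG7, another class IV factor, was at 2.94, 2.17 and 2.95 CPM in puchi-1 bends against 9.3, 6.1 and 6.79 CPM in WT bends (adjusted p = 0.00607). GL2, which sets hairless cell fate in the root epidermis, and HDG11 did not pass, with log2FC values of 0.45 ± 0.35 and −0.02 ± 0.27. HDG3 and HDG5 had 0 reads in all 6 libraries.

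PDF1 also shows how WT bends changed with time. Its mean level in puchi-1 bends was 0.0442 CPM at 12 hpg, 0.134 at 18 hpg, 0.00797 at 24 hpg, 0.0226 at 30 hpg and 0.293 at 36 hpg. In WT bends it was 0.089 CPM at 12 hpg, 2.95 at 18 hpg, 22.9 at 24 hpg, 50.2 at 30 hpg and 85.2 at 36 hpg. Group means in puchi-1 bends thus stayed at or under 0.293 CPM, while those in WT bends were higher at each later hour. The test of a change in the genotype difference between 18 and 24 hpg did not pass (unadjusted p = 0.0197, adjusted p = 0.991).

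Several other genes were as close to absent in the mutant. GRP23, a glycine-rich protein gene, had 0 reads in all puchi-1 libraries against 1.43, 0.897 and 1.33 CPM in WT bends, at least 77.0-fold lower against a floor of 3 reads over the group. Its call held in 2 of the 6 fits without a library (adjusted p up to 0.167). AT4G29020, another glycine-rich protein gene, had 0.0359, 0 and 0 CPM in puchi-1 bends against 16.1, 10.4 and 12.6 CPM in WT bends. ABCG15, a half-size ABC transporter related to the wax exporters, gave 0.012, 0 and 0 CPM against 2.5, 1.95 and 2.07 CPM in WT. ABCB2, a transporter of the P-glycoprotein group, was at 0.0359, 0.0169 and 0 CPM in puchi-1 against 4.9, 3.59 and 4.47 CPM in WT. Levels in the genotypes did not overlap for any of these genes, which were called on the same libraries.

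The aerial surface of a plant is covered by a cuticle, made of cutin, a polymer of hydroxylated fatty acids, and of waxes derived from very-long-chain fatty acids that lie within and on top of it. Of 15 tested wax genes, 6 fell and none rose, where 0.456% of all genes tested fell and 0.239% rose. The median log2FC of the list was −1.67. CER3 (AT5G57800), a core enzyme of alkane synthesis, had 5.4, 5.52 and 4.02 CPM in puchi-1 bends against 40.2, 29.0 and 30.2 CPM in WT bends. Its log2FC of −2.73 ± 0.24 had the lowest adjusted p of the list, 1.18e-07. The wax exporter ABCG11 was measured at 0.478, 0.373 and 0.318 CPM in puchi-1 against 13.4, 8.87 and 9.95 CPM in WT (log2FC −4.76 ± 0.74), and its partner ABCG12 at 0.693, 0.491 and 0.545 CPM against 11.1, 7.41 and 9.1 CPM in WT. LTPG1, a lipid transfer protein anchored at the cell surface, gave 2.62, 2.22 and 1.79 CPM in puchi-1 against 27.2, 19.0 and 20.6 CPM in WT. Its relative LTPG2 was lower in all puchi-1 libraries but missed the threshold (log2FC −1.67 ± 0.42, adjusted p = 0.0586).

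Of the MYB factors that activate wax genes, MYB94 was at 0.167, 0.203 and 0.341 CPM in puchi-1 bends against 3.6, 2.89 and 2.94 CPM in WT bends (adjusted p = 0.0175). MYB96 was at 1.45, 0.712 and 1.27 CPM against 4.11, 2.59 and 3.56 CPM in WT (adjusted p = 0.0484). The third, MYB30, did not pass, with a log2FC of 0.1 ± 0.19 and overlapping groups. LACS2 and CER1, an acyl-CoA synthetase and the partner of CER3, did not pass either, with log2FC values of −0.77 ± 0.46 and −0.83 ± 0.73.

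Of 18 tested cutin genes, 4 fell and none rose (median log2FC −0.92), where 0.456% of all genes tested fell and 0.239% rose. DCR, an acyltransferase needed for cutin assembly, had 2.06, 1.44 and 1.98 CPM in puchi-1 bends against 9.63, 6.78 and 7.02 CPM in WT bends (log2FC −2.1 ± 0.29, adjusted p = 0.000212). BDG1, an extracellular hydrolase required for an intact cuticle, was at 0.0239, 0.0847 and 0.0454 CPM against 2.75, 2.05 and 2.34 CPM in WT. GPAT8, an acyltransferase of cutin monomers, was at 0.956, 0.661 and 0.772 CPM against 2.52, 3.16 and 2.71 CPM in WT, and the transporter ABCG13 at 0, 0 and 0.0454 CPM against 0.724, 1.03 and 0.85 CPM in WT. The acyltransferase GPAT4 and the hydroxylase CYP86A2, both at higher levels in the bends, did not pass. GPAT4 had 328, 217 and 334 CPM in puchi-1 against 290, 375 and 338 CPM in WT (log2FC −0.19 ± 0.3), and CYP86A2 had 90.7, 52.9 and 121 CPM against 121, 194 and 247 CPM in WT (log2FC −1.09 ± 0.45, adjusted p = 0.27).

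Enzymes that elongate fatty acids supply the precursors of waxes. Of 22 tested genes of the elongase complex, 2 fell and none rose, where 0.456% of all genes tested fell and 0.239% rose. KCS8, a 3-ketoacyl-CoA synthase, was at 0.239, 0 and 0.159 CPM in puchi-1 bends against 8.54, 5.36 and 5.91 CPM in WT bends, and KCS5 at 1.23, 0.898 and 0.681 CPM against 6.08, 4.8 and 4.27 CPM in WT. The synthases KCS1, KCS2 and KCS20 and the shared subunits KCR1, PAS2 and CER10 did not pass, with log2FC values between −0.42 (KCS2) and 0.15 (PAS2). None of 20 suberin genes passed (median log2FC −0.48); suberin is the related polymer of endodermis and periderm in the parent root. The summed level of the suberin list was 3170, 1890 and 3580 CPM in puchi-1 against 3220, 4680 and 4500 CPM in WT, and replicate 2 of puchi-1 was thus lowest in this list and in the jasmonate list. The same library, the one with a title dated month 3, was lowest in the summed cutin list, at 478 CPM, against 778 and 828 CPM in the other puchi-1 libraries and 781, 1110 and 1170 CPM in WT. It was also lowest in the summed wax list, at 139 CPM, against 255 and 280 CPM in the other puchi-1 libraries and 371, 460 and 459 CPM in WT. For the genes called above, every puchi-1 library lay below every WT library, but these same libraries chose the genes. Of all genes tested, 11.5% did not overlap with puchi-1 lower. The part of this library in the calls was not tested by that order.

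Gene families with roles in surface lipids held more of the genes called lower. Of 93 tested genes for GDSL-type lipases and esterases, 5 fell and none rose, among them AT5G45670 with 0.825, 0.525 and 0.658 CPM in puchi-1 against 22.1, 15 and 13.8 CPM in WT. Of 76 lipid transfer protein genes, 4 fell and none rose, where 0.456% of all genes tested fell and 0.239% rose. LP1 (lipid transfer protein 1) was measured at 0.287, 0.0339 and 0.0681 CPM in puchi-1 against 14.1, 9.01 and 15.7 CPM in WT, and LTP3 at 0.239, 0.136 and 0.182 CPM against 12.7, 7.21 and 8.48 CPM in WT. Further genes called lower were the cytochrome P450 gene CYP77B1 (log2FC −6.01 ± 0.84), the cinnamyl alcohol dehydrogenase gene CAD9 (−6.21 ± 0.88), the cell wall protein gene PRP4 (−4.88 ± 0.6), the fatty acid desaturase gene ADS1 (−3.25 ± 0.6) and the peroxidase gene AT4G08780 (−6.48 ± 0.82). Called lower were 1 of 200 tested P450 genes, 2 of 94 peroxidase genes and 1 of 183 genes of extensins and proline-rich proteins. Of 33 genes for fatty acid desaturases and reductases 1 was called lower, where 0.305% of all genes were. The families were drawn up from product names after results of these data were known, and their counts are descriptions.

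**Figure D2:**
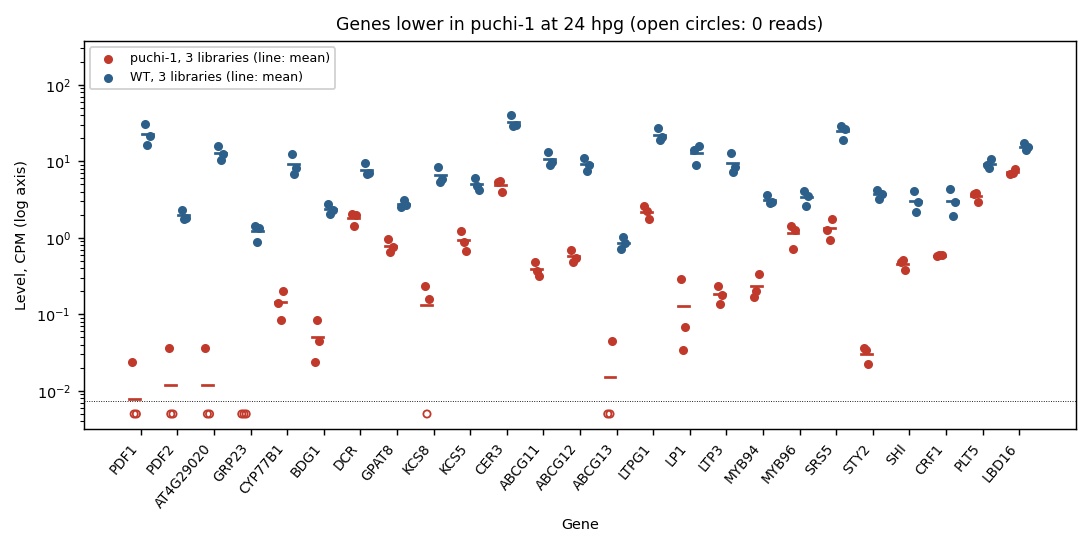
Levels of 25 genes lower in puchi-1 at 24 hpg, in CPM on a log axis, with 1 point for each library and a line at the mean of the 3 libraries of a genotype; puchi-1 (red) is left of WT (blue), and open circles under the dotted line are libraries with 0 reads. All were called on these same libraries. The genotypes do not overlap for any gene shown, from PDF1 (2 reads in all puchi-1 libraries) to LBD16 (6.81 to 8.08 CPM in puchi-1 and 14 to 17.2 CPM in WT).

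The L1 box, TAAATGCA or TAAATGTA, is the element through which class IV homeodomain factors such as PDF2 and ATML1 bind genes of the outer layer. In the 250 bases before the annotated start, on either strand, it was found for 10 of the 79 genes called lower (12.7%), for 0 of the 26 called higher and for 1096 of the 25860 tested genes with a window (4.24%). TAAATGCA alone was found for 7 of the 79 (8.86%) and for 1.45% of all windows. The box bound by ERF factors, GCCGCC, was found for 1 of the 79, for 0 of the 26 and for 2.0% of all windows. The auxin response element TGTCTC was found for 6 of the 79, for 3 of the 26 and for 11% of all windows, and the G-box CACGTG for 2 of the 79, for 2 of the 26 and for 6.67%. The windows below are those of a wax exporter, a P450 gene and both MYB factors that fell, shown because they carry TAAATGCA, from RefSeq's TAIR10.1 genome, with the L1 box in capitals.
ABCG11 (chr1:6142152-6142401, plus strand): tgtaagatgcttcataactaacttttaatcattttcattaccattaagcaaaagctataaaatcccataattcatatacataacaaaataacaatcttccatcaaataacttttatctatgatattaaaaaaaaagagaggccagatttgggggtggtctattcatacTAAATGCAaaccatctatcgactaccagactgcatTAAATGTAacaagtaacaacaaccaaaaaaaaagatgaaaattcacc
CYP77B1 (chr1:3901700-3901949, plus strand): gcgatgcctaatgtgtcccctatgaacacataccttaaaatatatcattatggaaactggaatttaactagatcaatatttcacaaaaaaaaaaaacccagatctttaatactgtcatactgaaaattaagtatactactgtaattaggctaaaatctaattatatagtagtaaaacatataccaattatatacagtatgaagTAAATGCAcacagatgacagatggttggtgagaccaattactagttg
MYB94 (chr3:17541308-17541557, minus strand): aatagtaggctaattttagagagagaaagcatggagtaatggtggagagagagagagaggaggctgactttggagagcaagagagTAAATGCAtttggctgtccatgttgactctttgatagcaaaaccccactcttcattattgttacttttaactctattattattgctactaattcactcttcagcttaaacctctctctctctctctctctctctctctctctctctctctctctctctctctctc
MYB96 (chr5:25081142-25081391, minus strand): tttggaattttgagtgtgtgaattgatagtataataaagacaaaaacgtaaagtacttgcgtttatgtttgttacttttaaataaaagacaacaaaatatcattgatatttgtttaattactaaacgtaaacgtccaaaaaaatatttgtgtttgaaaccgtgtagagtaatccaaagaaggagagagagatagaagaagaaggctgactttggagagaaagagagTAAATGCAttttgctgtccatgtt

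ABCG11 carries both forms of the box, starting 82 and 47 bases before its start, and CYP77B1 carries it 47 bases before. In MYB94 and MYB96, which are paralogues on different chromosomes, the box lies in a shared stretch: 47 of 50 aligned bases around it are identical. A match is a description of these letters in this window and says nothing of whether a factor binds there. No match was found in the windows of PDF1, DCR, BDG1 or CER3. Bases farther upstream or past the annotated start were not searched, so that this does not show that these genes lack the box.

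Transcription factors of the SHI/STY family promote local auxin synthesis and act redundantly in organ growth. All 9 tested members had a negative log2FC (median −2.17), where 12932 of all 25889 genes tested did. Of the 9 members, 4 fell and none rose, where 0.456% of all genes tested fell and 0.239% rose. SRS5 (AT1G75520) was measured at 1.26, 0.949 and 1.79 CPM in puchi-1 bends against 29.3, 19.1 and 26.8 CPM in WT bends (log2FC −4.24 ± 0.59, adjusted p = 0.000212). STY2 was at 0.0359, 0.0339 and 0.0227 CPM against 4.22, 3.26 and 3.78 CPM in WT, SHI at 0.49, 0.508 and 0.386 CPM against 4.05, 2.16 and 2.94 CPM in WT, and SRS7 at 0.0956, 0.0169 and 0.0454 CPM against 3.91, 1.29 and 3.37 CPM in WT. STY1 was lower in all puchi-1 libraries without passing (log2FC −2.03 ± 0.54, adjusted p = 0.0782). LRP1 and SRS6 differed least, with log2FC values of −0.58 ± 0.27 and −0.14 ± 0.13. None of the 11 tested auxin synthesis genes passed (median −0.43).

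Of 143 tested AP2/ERF genes, 3 fell (CRF1, PLT5 and ERF12) and 4 rose (PUCHI, PLT1, LEP and CRF3), with a median log2FC of −0.13. Over all genes tested, 0.456% fell and 0.239% rose. CRF1, a cytokinin response factor, was at 0.574, 0.593 and 0.59 CPM in puchi-1 bends against 4.32, 1.93 and 2.94 CPM in WT bends (log2FC −2.38 ± 0.37, adjusted p = 0.00069). PLT5 had 3.71, 3.85 and 2.93 CPM in puchi-1 against 8.97, 8.09 and 10.9 CPM in WT (log2FC −1.41 ± 0.22, adjusted p = 0.00069), and ERF12 had 1.65, 1.86 and 1.79 CPM against 3.72, 3.0 and 4.04 CPM in WT. Among the other cytokinin response factors CRF3 moved the other way, with 15.1, 13.5 and 11.7 CPM in puchi-1 against 9.38, 9.73 and 8.49 CPM in WT (log2FC 0.55 ± 0.13, adjusted p = 0.0403). The adjusted p of CRF3 was up to 0.288 without a library. LBD16, which acts downstream of auxin in the asymmetric divisions of founder cells, was at 6.81, 7.03 and 8.08 CPM in puchi-1 against 17.2, 14 and 15.5 CPM in WT (log2FC −1.09 ± 0.2, adjusted p = 0.00499). LBD16 was the only gene of the 13 in the early lateral root list to fall. LBD29 and LBD33, related factors of early primordia, were higher in all puchi-1 libraries but did not pass by the edgeR fit to all libraries (log2FC 0.83 ± 0.23 and 1.82 ± 0.45, adjusted p = 0.0856 and 0.0519). LBD33 passed under 5 of the 9 other settings, among them DESeq2 on the 36 libraries (adjusted p = 0.00515), and LBD29 under 3, among them the same DESeq2 fit (adjusted p = 0.0218). GATA23, a founder cell factor, had a log2FC of 2.8 ± 0.96 (adjusted p = 0.197). It passed under 2 of the 9 other settings, among them DESeq2 on the compared libraries alone (adjusted p = 0.00111).

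Of 7 tested PLETHORA (PLT) factors, PLT1 rose and PLT5 fell, where 0.239% of all genes tested rose and 0.456% fell. PLT1, which with its relatives specifies the root stem cell niche, was measured at 7.77, 9.51 and 9.13 CPM in puchi-1 bends against 3.16, 2.83 and 1.11 CPM in WT bends (log2FC 1.9 ± 0.44, adjusted p = 0.0367). BBM was higher in all puchi-1 libraries without passing, at 3.67, 4.34 and 4.09 CPM against 1.32, 1.48 and 1.05 CPM in WT (log2FC 1.65 ± 0.6, adjusted p = 0.221). The call of BBM depended on the fit: it passed under 3 of the 9 other settings, with adjusted p = 3.55e-10 by DESeq2 and 0.026 by edgeR on the compared libraries alone and 0.0117 by edgeR on the 30 bend libraries. PLT7 was lower in all puchi-1 libraries without passing (log2FC −0.86 ± 0.28, adjusted p = 0.17), and it passed by DESeq2 on the compared libraries alone (adjusted p = 0.01). PLT2 and PLT3 overlapped between the genotypes, with log2FC values of 0.04 ± 0.45 and −0.01 ± 0.25, and ANT was at 27.1, 26.6 and 25.4 CPM in puchi-1 against 15.9, 22.8 and 18.5 CPM in WT (adjusted p = 0.522). PLT1 passed without WT replicate 1 (adjusted p = 0.0485) and did not without any other single library, where the adjusted p was highest without WT replicate 3 (0.35).

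Of 16 tested genes of the root stem cell niche list, 3 rose and none fell, where 0.239% of all genes rose and 0.456% fell. RGF1, a secreted peptide that maintains the niche and PLT protein in the primary root, was at 1.12, 1.41 and 1.39 CPM in puchi-1 bends against 0.0413, 0.0585 and 0 CPM in WT bends (log2FC 5.38 ± 0.95, adjusted p = 0.00332). WIP4, a zinc finger factor of the distal root, was at 0.741, 1.25 and 1.25 CPM against 0.103, 0.039 and 0.0224 CPM in WT (log2FC 4.34 ± 0.82, adjusted p = 0.00632). SHR, which moves from the stele and specifies the endodermis, was at 40.5, 41.9 and 40.9 CPM against 33.9, 29.5 and 25.5 CPM in WT (log2FC 0.47 ± 0.11, adjusted p = 0.0312), and it passed in 1 of the 6 fits without a library. The marker of the quiescent centre, WOX5, did not pass, with 2.53, 3.46 and 3.54 CPM in puchi-1 against 5.17, 3.88 and 4.32 CPM in WT (log2FC −0.49 ± 0.24). SCR, JKD and ACR4 did not pass either (log2FC 0.28 ± 0.16, −0.02 ± 0.14 and 0.15 ± 0.21). None of the 9 root cap genes passed (median 0.11). PLT1 and WIP4 lie 9845 bp apart on chromosome 3, 1 of 4 pairs of called genes within 20 kb of each other.

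Auxin moves between cells through influx carriers of the AUX/LAX group and efflux carriers of the PIN and ABCB groups. Of 25 tested auxin transport genes, 3 rose and none fell (median log2FC 0.30), where 0.239% of all genes tested rose and 0.456% fell. PIN3 had 111, 111 and 108 CPM in puchi-1 bends against 64.1, 71.8 and 58.0 CPM in WT bends (log2FC 0.76 ± 0.09, adjusted p = 1.94e-05). ABCB19 had 123, 117 and 122 CPM against 75.8, 80.8 and 57.7 CPM in WT (log2FC 0.76 ± 0.15), and LAX2 had 25.4, 25.4 and 33.7 CPM against 12.0, 9.9 and 9.13 CPM in WT (log2FC 1.45 ± 0.34, adjusted p = 0.0428). PIN3 passed without each of the 6 libraries in turn, ABCB19 did not without WT replicate 3 (adjusted p = 0.108), and LAX2 passed in none of these fits (adjusted p between 0.0686 and 0.324). AUX1 did not pass (log2FC −0.38 ± 0.13, adjusted p = 0.182), and LAX3, which is induced in overlying cells, had a log2FC of 0.72 ± 0.21 (adjusted p = 0.112).

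Aux/IAA genes encode repressors that auxin degrades, and their transcripts respond to auxin. Of 29 tested, IAA4 and IAA13 rose and none fell, where 0.239% of all genes tested rose and 0.456% fell. IAA13 was at 74.3, 81.3 and 81.6 CPM in puchi-1 against 51.6, 56.8 and 52.3 CPM in WT (adjusted p = 0.000212), and IAA4 at 37.9, 47.9 and 40.8 CPM against 23.8, 27.1 and 22.3 CPM in WT (adjusted p = 0.00568). IAA4 did not pass without puchi-1 replicate 2 (adjusted p = 0.0575) or with edgeR on the compared libraries alone (adjusted p = 0.0576). None of 6 GH3 genes passed by the edgeR fit to all libraries (median log2FC 0.53). Of the 6, 4 had a positive and 2 a negative log2FC. For 3 of the 6 the genotypes did not overlap with puchi-1 higher, where 14.4% of all genes did so.

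CKX6 (AT3G63440), a cytokinin oxidase that degrades the hormone, was at 16.3, 17 and 14.3 CPM in puchi-1 bends against 5.85, 7.33 and 7.26 CPM in WT bends (log2FC 1.22 ± 0.17, adjusted p = 0.000212). It was the only oxidase of 7 to pass, where 0.695% of all genes tested passed. CKX1 and CKX7 were higher in all puchi-1 libraries with log2FC values of 0.89 ± 0.31 and 0.96 ± 0.35, and CKX5 was not (−0.25 ± 0.23). None of 10 type-A response regulators, the primary transcripts of the cytokinin response, passed (median 0.22).

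Few genes of the wall enzyme families passed: 2 of 17 glycosyl hydrolases of family 9 and 2 of 152 pectin lyases and methylesterases rose, none of 26 xyloglucan endotransglucosylases passed, and of 24 expansins EXPA20 rose (log2FC 0.49 ± 0.12, adjusted p = 0.0466) and EXLB1 fell. Over all genes tested, 0.239% rose and 0.456% fell. EXLB1, an expansin-like gene, was at 12.6, 17.9 and 9.9 CPM in puchi-1 bends against 28.8, 36.5 and 35.4 CPM in WT bends (log2FC −1.31 ± 0.22, adjusted p = 0.00236). The endoglucanase gene GH9B13 was at 46.7, 48.4 and 46.2 CPM in puchi-1 bends against 13.3, 12.0 and 7.06 CPM in WT bends (log2FC 2.13 ± 0.33, adjusted p = 0.00069), and GH9B1 at 33.2, 33.0 and 36.8 CPM against 17.2, 15.6 and 13.1 CPM in WT. The pectin lyase-like gene AT4G24780 was at 125, 131 and 128 CPM against 39.2, 43.5 and 27.6 CPM in WT (log2FC 1.8 ± 0.36, adjusted p = 0.0115), and AT3G15720 of the same superfamily rose as well (log2FC 1.64 ± 0.35). Of 33 tested genes of calmodulin-binding IQ-domain proteins, some of which bind microtubules, 3 rose and 1 fell. IQD16 was at 4.79, 6.56 and 6.56 CPM in puchi-1 against 0.992, 1.21 and 0.828 CPM in WT, IQD6 and IQD18 rose by log2FC values of 1.12 ± 0.23 and 1.44 ± 0.29, and iqd15 was at 1.84, 2.47 and 2.41 CPM in puchi-1 against 7.96, 6.28 and 8.01 CPM in WT. MNP, a zinc finger factor of organ boundaries, was at 3.22, 4.05 and 3.77 CPM against 1.34, 1.29 and 0.984 CPM in WT (log2FC 1.61 ± 0.35). AT4G38410, a dehydrin family gene, was at 11.2, 10.2 and 13.1 CPM against 0.0413, 0.702 and 0.145 CPM in WT (log2FC 5.31 ± 1.17, adjusted p = 0.0246).

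**Figure D3:**
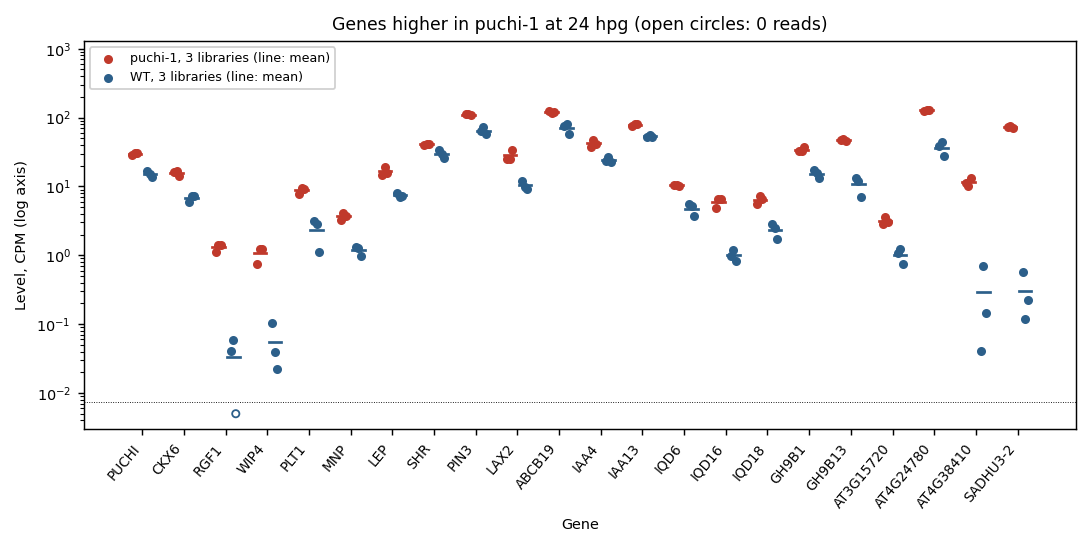
Levels of 22 genes higher in puchi-1 at 24 hpg, in CPM on a log axis, with 1 point for each library and a line at the mean of the 3 libraries of a genotype; puchi-1 (red) is left of WT (blue), and the open circle is a library with 0 reads. PIN3, ABCB19, IAA4, IAA13 and SHR passed with a log2FC within 1, and PUCHI had 0.99; RGF1, WIP4, AT4G38410 and SADHU3-2 were under 1 CPM in all WT libraries.

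SADHU3-2 and PHT2;1 passed at all 5 bend times, and their means in unbent segments are given without a test. SADHU3-2 (AT3G42658), a member of a retroposon family known for epigenetic variation between accessions, was at 73.0, 76.1 and 70.6 CPM in puchi-1 bends against 0.579, 0.117 and 0.224 CPM in WT bends (log2FC 7.95 ± 0.38, adjusted p = 1.27e-13, the lowest at 24 hpg). In unbent segments it averaged 79.3 CPM in puchi-1 and 0.337 CPM in WT. PHT2;1, the phosphate transporter of plastids, was at 16.4, 17.8 and 13.7 CPM against 66.7, 62.5 and 61.7 CPM in WT (log2FC −1.99 ± 0.16, adjusted p = 1.63e-08), and it averaged 8.66 CPM in unbent puchi-1 segments and 62.8 CPM in unbent WT segments. Of 13 tested genes of the phosphate list, PHT2;1 and PAP17 fell at 24 hpg and none rose, where 0.456% of all genes fell. The log2FC was negative for 10 of the 13 (median −0.42). The cause of these differences was not tested. AT3G44570, annotated as a retrotransposon protein, had 0 reads in puchi-1 bends against 0.207, 0.39 and 0.168 CPM in WT bends, at least 14.8-fold lower.

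Genes of the other tissues of a bend were compared as lists. None of 44 cell cycle genes passed, although 36 had a positive log2FC (median 0.2), and their summed level was 930, 959 and 940 CPM in puchi-1 against 850, 897 and 874 CPM in WT. Over all 25889 genes tested, 12770 had a positive and 12932 a negative log2FC. None of the 10 root hair, 10 endodermal barrier, 12 xylem, 10 phloem, 9 shoot photosynthesis or 13 emergence genes passed, nor any of 22 aquaporins. The medians were 0.79 for root hair, 0.45 for endodermal barrier, −0.2 for xylem and −0.41 for phloem genes. The summed level of the phloem genes was 141, 139 and 135 CPM in puchi-1 against 191, 170 and 197 CPM in WT, without overlap, and that of the xylem genes was 882, 825 and 720 CPM against 738, 926 and 1220 CPM in WT. The 16 tested jasmonate and wounding genes all had a negative log2FC (median −1.21) and none passed; LOX3, a lipoxygenase of that pathway, was at 3.05, 0 and 1.54 CPM in puchi-1 against 1.7, 8.54 and 55.7 CPM in WT. The part of these tissues in the results above was not tested.

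**Figure D4:**
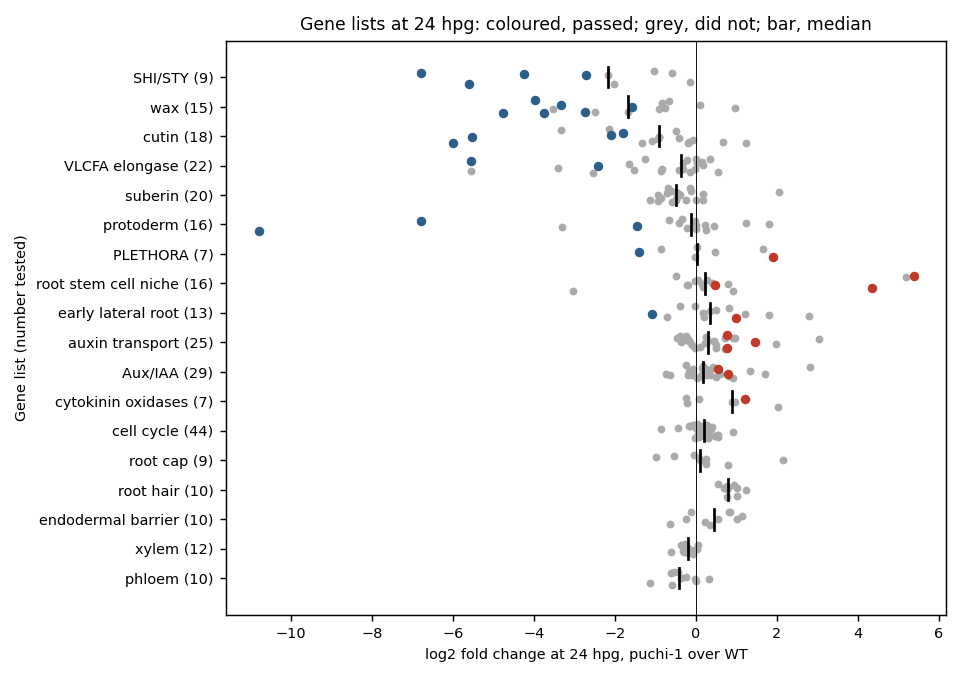
Log2 fold change at 24 hpg, puchi-1 over WT (x axis), of each tested gene of 18 lists (rows, with the number tested). Red points rose and blue points fell in puchi-1, grey points did not pass and the black bar is the median of the list; SHI/STY and wax have the lowest medians, −2.17 and −1.67, and no list of parent root tissue holds a coloured point.

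Among the other genes called lower, 4 encode lipases or esterases of the GDSL type. Of this type 5 of 93 tested genes fell and none rose, where 0.456% of all genes fell. AT1G75900 was at 0.0359, 0 and 0 CPM in puchi-1 bends against 5.06, 3.88 and 2.55 CPM in WT bends, and its neighbour AT1G75880 at 0, 0.0169 and 0 CPM against 1.94, 1.95 and 1.59 CPM in WT. AT3G16370 and AT3G48460 had log2FC values of −4.38 ± 0.82 and −3.06 ± 0.71. Of 76 tested lipid transfer proteins 4 fell and none rose, and besides LP1 and LTP3 these were LTP6, at 0.0359, 0 and 0.0227 CPM in puchi-1 against 4.59, 2.55 and 3.44 CPM in WT, and AT5G01870, with means of 0.611 ± 0.375 CPM in puchi-1 and 12.6 ± 3.47 CPM in WT (SD, n = 3 each). SIP1, annotated as seed imbibition 1, was at 27.2, 35.6 and 22.3 CPM against 52.4, 65.2 and 71.7 CPM in WT (log2FC −1.15 ± 0.15, adjusted p = 6.09e-05). The carboxypeptidase-like gene scpl25 had a log2FC of −3.37 ± 0.45, the formin gene AT3G05470 of −1.86 ± 0.28 and the NPH3 family genes AT3G26490 and AT1G03010 of −1.66 ± 0.26 and −2.16 ± 0.51. Further lower genes picked by the naming rule were AT4G12870, AT4G16240, AT2G15940, AT1G51805, AT4G31760, AT4G21620 and AT2G46890. Their log2FC values lay between −7.69 (AT4G12870) and −1.46 (AT2G46890), and other genes called lower are not named here. AT2G15940 was the called gene whose libraries overlapped, at 0, 0 and 0.0227 CPM in puchi-1 against 0.0207, 0.253 and 0.794 CPM in WT.

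Among the other genes called higher, AT3G25290, annotated as an auxin-responsive family protein, was at 51.8, 46.4 and 50.7 CPM in puchi-1 bends against at most 28.1 CPM in WT bends (log2FC 1.17 ± 0.23, adjusted p = 0.00767). AT4G35720, of unknown function, was at 3.75, 4.19 and 3.16 CPM against 0.165, 0.448 and 0.0447 CPM in WT. AT3G48660, AT4G23340 and AT3G22540 had log2FC values of 1.38 ± 0.31, 1.75 ± 0.36 and 1.80 ± 0.41. The non-coding RNA AT5G00490 had 18, 8 and 6 reads in puchi-1 against 0 in each WT library. None of the other members of the early lateral root, stem cell niche and protoderm lists passed by the edgeR fit to all libraries. WIP5 had 1, 4 and 8 reads in puchi-1 against 0 in each WT library (adjusted p = 0.153), MAKR4 a log2FC of 1.21 (adjusted p = 0.111), and ARF19 had the lowest adjusted p of these, 0.0621, at a log2FC of 0.36. The others were ARF7, IAA14, IAA28, LBD18, MYB124, NUC, MGP, BLJ, RGF2, RGF3, RGI1, CYCD6;1, ANL2, FWA, HDG1, HDG2, HDG4, HDG8, HDG9 and HDG10, with log2FC values between −0.70 (MYB124) and 1.81 (HDG4). MAKR4 and ARF19 each passed under 4 of the 9 other settings, among them DESeq2 on the 36 libraries (adjusted p = 0.0302 and 0.0221). CYCD6;1 passed under 2 of those settings, and IAA14 and MYB124 under 1 each.

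How far single calls rested on 1 library was read from the 6 fits without a library of 24 hpg. Among the called lower genes named above, ABCB2, ABCG11, ABCG15, AT1G75900, AT2G46890, AT3G05470, AT3G26490, AT3G44570, AT4G08780, AT4G12870, AT4G29020, AT5G45670, BDG1, CAD9, CER3, CRF1, CYP77B1, DCR, EXLB1, KCS8, LBD16, LP1, PDF1, PHT2;1, PLT5, PRP4, SIP1, SRS5, STY2, iqd15 and scpl25 passed in all 6. HDG7 passed in 5, ADS1, AT1G75880, AT3G16370 and KCS5 in 4 and ABCG12, LTP3, LTP6, LTPG1, MYB94, PDF2 and SHI in 3. AT2G15940, AT4G16240, GRP23 and SRS7 passed in 2, AT5G01870, ERF12, GPAT8 and MYB96 in 1 and ABCG13, AT1G03010, AT1G51805, AT3G48460, AT4G21620 and AT4G31760 in 0. Among the called higher genes named above, CKX6, GH9B13, RGF1 and SADHU3-2 passed in all 6. AT3G25290, AT4G24780, IQD16 and WIP4 passed in 5, GH9B1 and IQD18 in 4 and IQD6 in 3. AT3G48660 and AT4G23340 passed in 2, AT3G15720, AT3G22540, AT4G35720, AT4G38410, MNP and PLT1 in 1 and AT5G00490, LAX2 and LEP in 0. All of these genes kept their sign in every such fit.

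The bends of 18 and 30 hpg are separate libraries, but their tests used the same estimate of spread as the test at 24 hpg. Some also share the day and month of their titles with libraries of 24 hpg. These are puchi-1 18 hpg replicate 1 with puchi-1 replicate 2, WT 30 hpg replicate 3 with WT replicate 2, and puchi-1 30 hpg replicate 3 with WT replicate 3. The labels do not say whether such libraries share a planting, so the counts below describe recurrence in libraries that may not be independent. All 105 genes called at 24 hpg had a log2FC of the same sign at 18 hpg and at 30 hpg. At 18 hpg 39 of them passed, where 0.421% of all genes did, and at 30 hpg 62 passed, where 0.498% did. Of the 79 lower genes, 30 passed at 18 hpg, where 0.182% of all genes passed as lower, and 53 at 30 hpg, where 0.297% did. Their median log2FC was −2.42 at 18 hpg and −3.15 at 30 hpg. Of the 26 higher genes, 9 passed at 18 hpg, where 0.239% of all genes passed as higher, and 9 at 30 hpg, where 0.201% did. Their median log2FC was 1.43 at 18 hpg and 1.28 at 30 hpg. At both times 30 of the 105 passed, CER3, SRS5, CRF1, PRP4, ABCG11, KCS8, CKX6 and LBD16 among them. PDF1 had a log2FC of −4.37 at 18 hpg without passing (adjusted p = 0.144) and of −11.0 at 30 hpg (adjusted p = 0.000291). PLT1 and WIP4 passed at 18 hpg (log2FC 2.11 and 5.0) and did not at 30 hpg (1.36 and 1.24, adjusted p = 0.317 and 0.901).

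**Figure D5:**
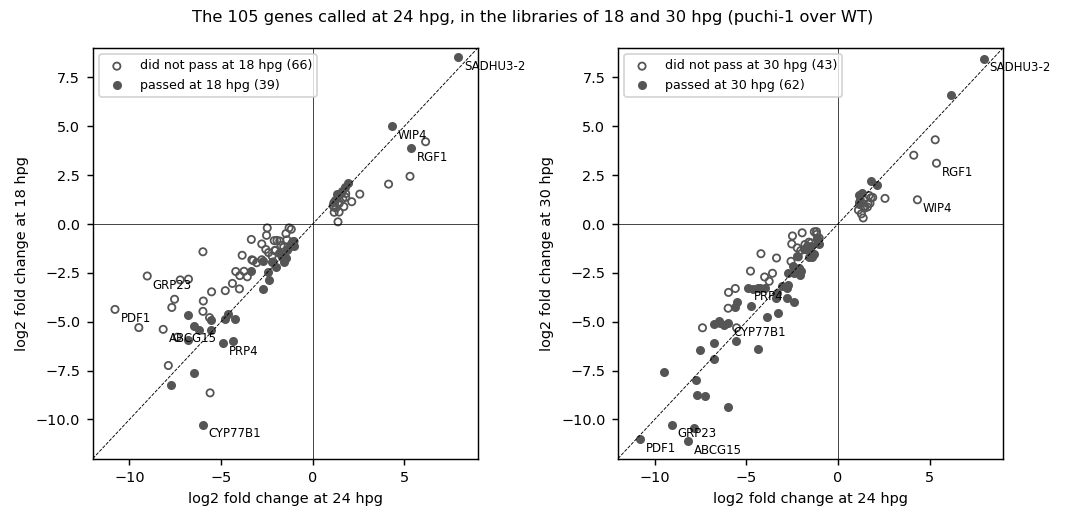
The 105 genes called at 24 hpg, with their log2 fold change (puchi-1 over WT) at 24 hpg on the x axis and that at 18 hpg (left) or 30 hpg (right) on the y axis; filled circles passed at that other time (39 and 62 genes), open circles did not, and the dashed line marks equal values. Every gene lies on the same side of 0 at all 3 times, and PDF1 and GRP23 lie above the line at 18 hpg and near or below it at 30 hpg.

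A change of the genotype difference with time was tested directly. The log2FC at 24 hpg differed from that at 18 hpg for 0 genes by edgeR (1103 genes, 4.26%, at an unadjusted p under 0.05; 0 genes by DESeq2 on the 36 libraries and 6 by DESeq2 on the compared libraries alone), and from that at 30 hpg for 0 genes (1156 genes, 4.47%, unadjusted; 0 and 1 by the same DESeq2 fits). Against the mean of the other 4 bend times it differed for 0 genes by edgeR (1556 genes, 6.01%, unadjusted) and for 1 and 12 genes by DESeq2. Of the 105 genes, 28 passed at 24 hpg and at no other bend time, among them IQD16, IQD18, IQD6, LAX2, TET10, MYB94, HDG7, SRS7 and PIF7. Since no difference between times passed by edgeR, these 28 are not shown to be particular to 24 hpg. At every bend time 8 of the 105 passed: SADHU3-2, PHT2;1, CKX6, SRS5, CRF1, AT3G57950, AT1G70470 and AT2G00840.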

How the data were processed

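The deposited table held raw counts of reads per gene for 36 libraries. The authors made these counts from stranded paired-end reads with bcl2fastq 2.20, TopHat2 2.1.1, Bowtie2 2.3.5.1, SAMtools 1.9 and featureCounts 2.0.0 on TAIR10.1, counting on the strand of the kit. Names and coordinates came from RefSeq's TAIR10.1 annotation, matched for 37884 of 37973 rows by locus tag.

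Genes with at least 15 reads summed over the 36 libraries were fitted in 1 model of 12 groups with edgeR 4.0.16 (R 4.3.3; TMM scaling, quasi-likelihood test, Benjamini-Hochberg adjustment over all 25889 genes). The standard error is the log2FC divided by the square root of F. DESeq2 1.42.0 and the other settings are described in the closing section. Rows without a locus tag, from organelle genomes, held 0.112% to 0.262% of the reads of the 6 libraries and were kept. On simulated counts for this comparison (25720 genes) 29 of 67 genes changed by a log2FC of 1 passed, 67 of 67 changed by 2 and 66 of 66 changed by 3, with 6 false calls. The simulation changed only genes with many reads and gave every gene the same dispersion. Its shares and false calls therefore do not carry over to genes with few reads or a wider spread. No 2 libraries agreed within sampling noise. Intervals and floors cover counting error only and take each counted read as independent. Whether mates of a read pair were counted separately was not checked, and if so the intervals are too narrow.

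The genes named were PUCHI, the 20 of lowest p called in each direction, the 10 of largest log2FC in each direction with at least 1 CPM in the higher genotype, called members of lists and families, and all members of the PLETHORA, stem cell niche, early lateral root and protoderm lists. No gene passed a test of a difference between times in edgeR, so none was named by that part of the rule. PIF7, AT1G70470, EXPA20 and other list members were named after their values were seen. A gene of the auxin transport list is not reported here, and the counts and the median of that list leave it out. The comparison and the lists were chosen with earlier results of these data known, and some family definitions were changed after values were seen, so that counts over them are descriptions.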

Additional observations from a re-analysis of the deposited data

Results flagged for a closer look

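In 4 of the 131 genes picked by the naming rule or added from the lists (3.05%) all libraries of the genotypes moved apart in 1 direction at 24 hpg and in the opposite direction at another bend time, where 711 of all 25889 genes tested (2.75%) did so. WOX5 had a log2FC of −0.49 at 24 hpg and of 0.64 at 18 hpg, and the difference between them did not pass (unadjusted p = 0.00319, adjusted p = 0.991 by edgeR). TMO6 had −0.38 at 24 hpg and 0.29 at 18 hpg (unadjusted p = 0.00533, adjusted p = 0.991 by edgeR). CLE40 had −3.04 at 24 hpg and 3.31 at 30 hpg (unadjusted p = 0.00322, adjusted p = 0.924 by edgeR), at mean levels of 0.00398 CPM in puchi-1 and 0.0562 CPM in WT at 24 hpg. HDG12 had −0.42 at 24 hpg and 0.33 at 12 hpg, and that difference was not tested. None of these genes passed at either of its times by the edgeR fit to all libraries. TMO6 passed at 24 hpg by DESeq2 on the compared libraries alone (adjusted p = 0.0498).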

How the results depend on the processing

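The 105 genes called at 24 hpg kept the sign of their log2FC under all 9 other settings and without each of the 6 libraries. The count of genes called at 24 hpg was 241 by DESeq2 on the 36 libraries, 513 by DESeq2 on the compared libraries alone and 281 with the 30 bend libraries in one edgeR fit, and it lay between 51 and 118 without 1 library. It was 91 with edgeR on the compared libraries alone, 107 with DESeq2 size factors, 100 with no limit on low counts and 114 with filterByExpr. With the month of the title as a covariate it was 97 (51 higher and 46 lower), and 54 of these were among the 105. Undated libraries were given a level of their own, which at 24 hpg held puchi-1 replicates 1 and 3 and no WT library. The genotypes shared no level at 24 hpg, so the month effect came from libraries of other stages. This fit therefore cannot separate date from genotype at 24 hpg. Of the 105, 38 passed without each of the 6 libraries, 14 in none of those fits and 40 under all 9 other settings; of the 89 passing genes among the 131 picked by the naming rule or added from the lists, 38 did so without each library and 40 under all other settings. The log2FC at 24 hpg differed from that at 18 hpg for 6 genes and from that at 30 hpg for 1 gene by DESeq2 on the compared libraries alone, and from the mean of the other bends for 1 gene by DESeq2 on the 36 libraries and 12 by DESeq2 on the compared libraries alone, against 0 by edgeR. Of the 105 genes, 39 passed at 18 hpg; the count was 62 by DESeq2 on the 36 libraries, 72 by DESeq2 on the compared libraries alone and 78 with 30 bend libraries, and 21 to 30 without 1 library of 18 hpg. At 30 hpg 62 passed, and 40 to 47 without 1 library of 30 hpg. The cause of these changes was not tested. The replicate numbers do not pair the samples: deviations of same-numbered libraries correlated at −0.077, 0.0199 and 0.112. With the replicate block 124 genes were called, 103 of them among the 105. Genes with few reads in puchi-1 had wide errors, and a log2FC of 1 was often missed in the simulation.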

Other observations

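Unbent WT segments, taken where no primordium was expected, varied in genes that were nearly absent from puchi-1 bends. PDF1 was at 0.0608, 0.276 and 0 CPM in unbent puchi-1 segments against 1.12, 11.8 and 80.0 CPM in unbent WT segments. ABCB2 was at 0.0203, 0.345 and 0.107 CPM in unbent puchi-1 segments against 0.14, 2.2 and 11.4 CPM in unbent WT segments, with the same WT library highest. CER3 was at 8.13, 7.69 and 5.23 CPM in unbent puchi-1 segments against 11.1, 17.8 and 29.1 CPM in unbent WT segments. These genes were chosen after values at 24 hpg were seen, and no test was made.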
